A study of Mus musculus with 11 samples.

Results

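The genes described here are 8 transcripts that mark naive and central memory T cells or that hold T cells in a resting state. They are the lymph node homing receptor Ccr7, the egress receptor S1pr1, the transcription factors Lef1, Tcf7, Klf2, Foxo1 and Bach2, and the chromatin organizer Satb1. They were picked by symbol out of 35814 gene symbols measured in RNA of renal CD4+ T cells. Each was read across 11 libraries, also relative to the summed counts of Trac, Trbc1 and Trbc2, the constant regions of the αβ T cell receptor (TCR). All libraries came from male C57BL/6 mice of 8 to 12 weeks, killed on day 2 after ischemia–reperfusion injury (IRI) with 45 min of clamping of both renal pedicles, and no library of uninjured kidney was used here. The 3 CD4cre mice expressed Cre recombinase under the CD4 promoter and served as controls. The 5 CD4IKK1Δ mice carried floxed IKK1 (Chuk) and the 3 CD4NIKΔ mice floxed NIK (Map3k14), in both cases together with that Cre. Since the CD4 promoter is active in the thymus before the CD4 and CD8 lineages part, deletion by this Cre is not restricted to CD4+ T cells.

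Naive and central memory T cells circulate between blood and lymph nodes. CCR7 reads the chemokines CCL19 and CCL21 and guides these cells into lymph nodes, and S1PR1 senses sphingosine-1-phosphate and lets them leave again. FOXO1, which is shut out of the nucleus by AKT once a T cell is activated, promotes transcription of Klf2, Ccr7 and Il7r, and KLF2 in turn promotes S1pr1. TCF1 (encoded by Tcf7) and LEF1 bind β-catenin and keep the capacity for self-renewal, BACH2 competes with AP-1 factors and restrains effector genes, and SATB1 folds chromatin from thymocyte stages onward. In effector T cells that enter an injured organ most of these transcripts are low.

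Library totals of the deposited estimated counts lay between 15751632 and 25737046, with a median of 19030516. On the usual library-size scale (CPM), 3 counts were worth 0.117 to 0.190 before TMM factors, which all CPM values below include. Floors and intervals of this kind reflect counting error alone, because the libraries were amplified and carried no molecular identifiers. Neither targeted transcript was lower in the libraries labelled as its deletion by the test used here. Chuk was at 20.4 ± 4.52 CPM (SD, n = 5) in libraries labelled CD4IKK1Δ and 22.1 ± 9.70 CPM (SD, n = 3) in CD4cre libraries. Map3k14 was at 22.5 ± 9.07 CPM (SD, n = 3) in libraries labelled CD4NIKΔ and 17.9 ± 2.77 CPM in CD4cre libraries. A gene value is a sum over transcripts, so the floxed exons cannot be read from it. The 3 TCR constant genes together reached 35820, 22741 and 12558 counts in CD4cre mice and 60124, 111648 and 90324 counts in CD4NIKΔ mice. In libraries labelled CD4IKK1Δ they reached 41, 868, 11413, 5277 and 5644 counts (replicates 1 to 5), so that replicates 1 and 2 held little T cell RNA by this measure. The summed level of 15 pan T cell markers kept the same order of groups, with 219 to 1006 CPM in CD4IKK1Δ, 1207 to 1899.6 CPM in CD4cre and 5393 to 6504 CPM in CD4NIKΔ libraries. In CD4IKK1Δ replicates 1 and 2, Thy1 alone gave 204 and 165 CPM of this sum. Thy1 did not follow that order, with 154 to 204 CPM in CD4IKK1Δ, 113 to 157 CPM in CD4cre and 106 to 144 CPM in CD4NIKΔ libraries. In bulk RNA, fewer T cells in a sample and less of a transcript per T cell cannot be told apart. The p-values below measure the spread between these libraries.

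Levels of different genes were compared only per kilobase of the annotated canonical transcript (CPM per kb). Klf2 stood first and Ccr7 next in all 3 groups by mean, and Klf2 exceeded Ccr7 in each of the 11 libraries. In CD4cre mice the mean level ran from 388 ± 252 CPM per kb for Klf2 and 101 ± 82.3 for Ccr7 through S1pr1, Satb1, Foxo1, Lef1 and Tcf7 down to 2.32 ± 1.64 CPM per kb for Bach2 (SD, n = 3). Satb1 was above S1pr1 in 2 of the 3 CD4cre libraries although its mean was lower, and Foxo1 was above Lef1 in 2 of 3, so that neither pair had a stable order. Lef1, a partner of TCF1, was at 8.83 ± 4.29 CPM per kb (SD, n = 3) in CD4cre mice, below Satb1. In CD4NIKΔ mice it was at 85.0 ± 35.8 CPM per kb (SD, n = 3) and above Satb1 in 3 of 3 libraries, while Tcf7 and Foxo1 had no stable order there (2 of 3). Among the libraries labelled CD4IKK1Δ the order was loose. In replicate 1 Klf2, at 1.33 CPM per kb, was below Satb1 (6.58), Foxo1 (4.33) and S1pr1 (2.42). Ccr7 exceeded Satb1 in 2 of 5 libraries, S1pr1 exceeded Foxo1 in 3 of 5, and Lef1 exceeded Bach2 in 2 of 5.

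**Figure D1:**
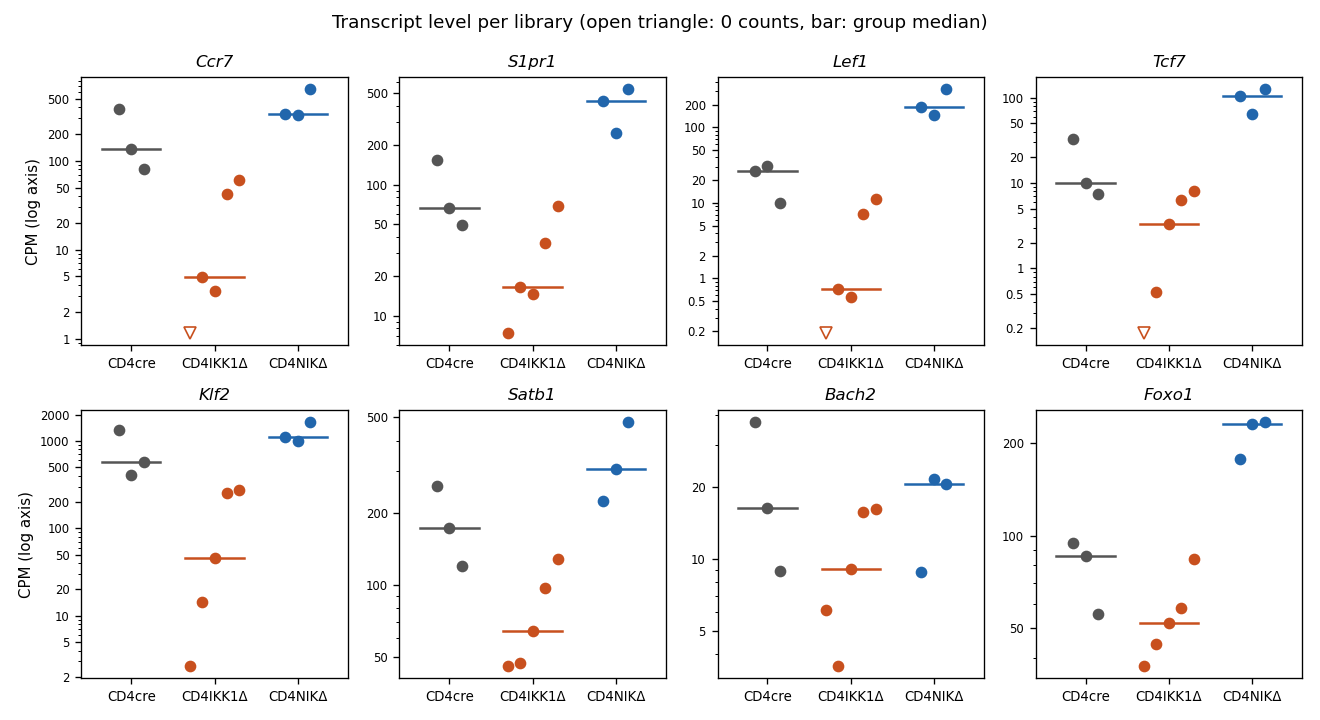
Level of each gene per library in CPM on a log axis that differs between panels, with 1 point per mouse (replicates from left to right), a bar at the group median and an open triangle at the lower edge for a library with 0 counts. CD4NIKΔ libraries are above all CD4cre libraries for S1pr1, Lef1, Tcf7 and Foxo1, and CD4IKK1Δ libraries spread over the widest range, down to 0 counts of Ccr7, Lef1 and Tcf7 in replicate 1.

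Ccr7, the receptor for lymph node entry (chromosome 11, 99035022 to 99045911 on GRCm39, minus strand), had 387, 134 and 80.9 CPM in the 3 CD4cre libraries. The libraries labelled CD4IKK1Δ had 0, 4.87, 3.45, 42.1 and 60.6 CPM, and those labelled CD4NIKΔ 336, 330.1 and 636 CPM. Every library labelled CD4IKK1Δ was below every CD4cre library, and CD4cre replicate 1 lay inside the CD4NIKΔ range. In libraries labelled CD4IKK1Δ the log2 fold change against CD4cre was −3.17 (standard error 1.5, adjusted p = 0.359, edgeR's quasi-likelihood test with Benjamini-Hochberg adjustment over all genes), which did not pass the threshold of an adjusted p under 0.05 and a more than 2-fold difference. The CD4NIKΔ libraries differed from CD4cre by 1.10 (standard error 0.54, adjusted p = 0.172), also not past it. Ccr7 was lower in CD4IKK1Δ than in CD4NIKΔ libraries by the same test (log2 fold change −4.28, standard error 1.33, adjusted p = 0.0270). S1pr1, the sphingosine-1-phosphate receptor for egress (chromosome 3, 115504071 to 115508721, minus strand), had 155, 66.3 and 49.5 CPM in CD4cre, 7.37, 16.6, 14.5, 36.0 and 68.7 CPM in CD4IKK1Δ and 431, 247 and 531 CPM in CD4NIKΔ libraries. All CD4NIKΔ libraries were above all CD4cre libraries, whereas CD4IKK1Δ replicate 5 was above CD4cre replicates 2 and 3. S1pr1 rose in CD4NIKΔ against CD4cre mice (log2 fold change 2.15, standard error 0.46, edgeR adjusted p = 0.0189) and was lower in CD4IKK1Δ than in CD4NIKΔ libraries (−3.81, standard error 0.69, adjusted p = 0.00187). Against CD4cre, CD4IKK1Δ libraries differed by −1.66 (standard error 0.72, adjusted p = 0.309).

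Lef1 and Tcf7, which encode the HMG box factors of the T lineage, had the largest differences between CD4IKK1Δ and CD4NIKΔ libraries among the 8 genes. Lef1 (chromosome 3, 130903919 to 131018005 on GRCm39, plus strand) had 26.5, 30.9 and 10.1 CPM in CD4cre libraries, 0, 0.733, 0.566, 7.16 and 11.4 CPM in CD4IKK1Δ libraries and 186, 145 and 319 CPM in CD4NIKΔ libraries. The lowest CD4NIKΔ library stood well above the highest CD4cre library, and CD4IKK1Δ replicate 5 lay just above CD4cre replicate 3. The rise in CD4NIKΔ against CD4cre mice was the largest of the 8 genes (log2 fold change 3.26, standard error 0.47, edgeR adjusted p = 0.00554), and so was the difference between CD4IKK1Δ and CD4NIKΔ libraries (−5.75, standard error 1.20, adjusted p = 0.00403). Tcf7 (chromosome 11, 52143107 to 52174619, minus strand) had 32.5, 9.88 and 7.43 CPM in CD4cre, 0, 0.524, 3.34, 6.37 and 8.07 CPM in CD4IKK1Δ and 105, 63.9 and 125 CPM in CD4NIKΔ libraries. Here too the CD4NIKΔ libraries did not overlap with CD4cre, and CD4IKK1Δ replicate 5 lay above CD4cre replicate 3. Tcf7 rose in CD4NIKΔ against CD4cre mice (log2 fold change 2.55, standard error 0.56, edgeR adjusted p = 0.0207) and was lower in CD4IKK1Δ than in CD4NIKΔ libraries (−4.73, standard error 1.07, adjusted p = 0.00593). Against CD4cre, the libraries labelled CD4IKK1Δ differed by −2.49 for Lef1 (standard error 1.30, adjusted p = 0.388) and −2.18 for Tcf7 (standard error 1.17, adjusted p = 0.398), neither past the threshold.

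Klf2, which encodes a zinc finger factor of quiescent T cells (chromosome 8, 73072726 to 73075502 on GRCm39, plus strand), was the most abundant of the 8 genes. Its level was 1349.6, 403 and 576 CPM in CD4cre, 2.65, 14.4, 45.3, 254 and 275 CPM in CD4IKK1Δ and 1114, 1009 and 1629 CPM in CD4NIKΔ libraries. All CD4IKK1Δ libraries were below all CD4cre libraries, and CD4cre replicate 1 was above 2 of the 3 CD4NIKΔ libraries. By edgeR's quasi-likelihood test only the difference between CD4IKK1Δ and CD4NIKΔ libraries passed the threshold for Klf2 (log2 fold change −3.40, standard error 1.16, adjusted p = 0.0405). For Klf2, CD4IKK1Δ against CD4cre gave −2.71 (standard error 1.35, adjusted p = 0.382) and CD4NIKΔ against CD4cre 0.68 (standard error 0.42, adjusted p = 0.275). Foxo1, the forkhead factor upstream of Klf2 and Ccr7 (chromosome 3, 52175757 to 52260642, plus strand), moved over a narrower range. It had 94.4, 85.9 and 55.4 CPM in CD4cre, 37.5, 44.4, 51.8, 58.1 and 83.9 CPM in CD4IKK1Δ and 178, 231 and 234 CPM in CD4NIKΔ libraries. The CD4NIKΔ libraries lay above all other libraries, and the CD4IKK1Δ range reached into the CD4cre range. Foxo1 rose in CD4NIKΔ against CD4cre mice (log2 fold change 1.43, standard error 0.24, edgeR adjusted p = 0.00926) and was lower in CD4IKK1Δ than in CD4NIKΔ libraries (−1.96, standard error 0.25, adjusted p = 0.000143). It differed from CD4cre by −0.51 in CD4IKK1Δ libraries (standard error 0.26, adjusted p = 0.363).

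The start regions of Lef1 and Klf2 are shown because these were the gene with the largest difference between genotypes and the most abundant of the 8 genes. RefSeq (build GRCm38.p6) gave promoter windows for 6 of the 8 genes, not for Ccr7 and S1pr1, and the 250 bases before the start are printed 5′ to 3′ on the plus strand. Capitals mark the GC box GGGCGG, bound by SP and KLF factors. The single longer run of capitals in Klf2 is the MEF2 element, bound by MEF2 factors. Both strands were searched.
Lef1, chr3:131110047-131110296: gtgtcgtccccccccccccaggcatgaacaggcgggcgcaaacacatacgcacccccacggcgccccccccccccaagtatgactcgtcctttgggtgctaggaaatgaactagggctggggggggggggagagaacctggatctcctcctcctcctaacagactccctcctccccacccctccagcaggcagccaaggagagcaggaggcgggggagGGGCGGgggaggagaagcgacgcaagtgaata
Klf2, chr8:72318812-72319061: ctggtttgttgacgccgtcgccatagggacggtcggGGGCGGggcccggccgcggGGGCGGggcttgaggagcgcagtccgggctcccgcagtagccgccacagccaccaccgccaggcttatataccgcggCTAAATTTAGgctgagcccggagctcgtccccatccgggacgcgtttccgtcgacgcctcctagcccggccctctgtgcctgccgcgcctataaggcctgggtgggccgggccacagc
The Lef1 window, the first of 4 starts in the table, held 1 GC box, and the Klf2 window held 2 GC boxes and 1 MEF2 element. At least 1 start each of Lef1, Tcf7, Klf2, Satb1 and Foxo1 (5 of 6 genes) held a GC box, against 35.4% of all genes with an entry, and 13 of 27025 genes (0.0481%) held the MEF2 element. The TCF core CTTTGA was found at a start of Lef1 and of Bach2 (15.8% of all genes), the FOXO element GTAAACA at none of the 6 genes (3.54%), and the κB consensus at a start of Satb1 (8.23%). These matches are letters in a window and were not tested for binding.

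Satb1, which encodes a chromatin organizer (chromosome 17, 52043114 to 52140622 on GRCm39, minus strand), had 258, 173 and 120.4 CPM in CD4cre, 45.9, 47.4, 64.2, 97.3 and 129 CPM in CD4IKK1Δ and 225, 303 and 477 CPM in CD4NIKΔ libraries. CD4IKK1Δ replicate 5 lay just inside the CD4cre range, and CD4cre replicate 1 lay inside the CD4NIKΔ range. Satb1 was lower in CD4IKK1Δ than in CD4NIKΔ libraries (log2 fold change −2.13, standard error 0.38, edgeR adjusted p = 0.00112). Against CD4cre it differed by −1.26 in CD4IKK1Δ libraries (standard error 0.38, edgeR adjusted p = 0.171) and was the only one of the 8 genes that passed the threshold in that comparison under DESeq2 (−1.27, adjusted p = 0.0106), a call that was lost with all 11 libraries in the DESeq2 fit (adjusted p = 0.0614). The difference of CD4NIKΔ from CD4cre was 0.85 (standard error 0.34, adjusted p = 0.106). Bach2, which encodes a repressor of effector genes (chromosome 4, 32238714 to 32586108, plus strand), was the exception among the 8 genes. It had 37.2, 16.3 and 8.88 CPM in CD4cre, 6.14, 3.56, 9.06, 15.8 and 16.2 CPM in CD4IKK1Δ and 8.78, 21.6 and 20.6 CPM in CD4NIKΔ libraries. The 3 groups overlapped with each other, and no comparison passed the threshold. The log2 fold changes of Bach2 were −1.04 (standard error 0.56, edgeR adjusted p = 0.389) for CD4IKK1Δ against CD4cre, −0.31 (standard error 0.55, adjusted p = 0.717) for CD4NIKΔ against CD4cre and −0.74 (standard error 0.55, adjusted p = 0.310) for CD4IKK1Δ against CD4NIKΔ.

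**Figure D2:**
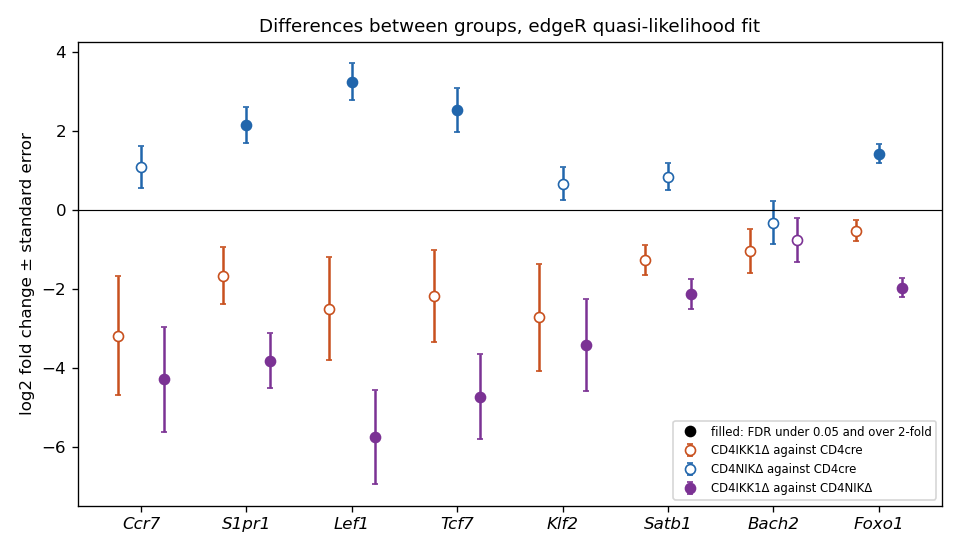
Log2 fold change of each gene with its standard error from edgeR's quasi-likelihood fit, for CD4IKK1Δ against CD4cre (orange), CD4NIKΔ against CD4cre (blue) and CD4IKK1Δ against CD4NIKΔ (purple), with filled points where the adjusted p was under 0.05 and the difference more than 2-fold. No orange point, 4 blue points and 7 purple points are filled, and Bach2 is open in all 3 comparisons.

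Read as a group, the 8 genes were set beside all genes tested in the same fit. Between CD4IKK1Δ and CD4cre mice, 0 of 8 passed the threshold, as did 0.0% of the 15653 genes tested by edgeR. At an unadjusted p under 0.05, 1 of 8 (Satb1) was lower against 8.91% of all genes, and DESeq2 called the same 1 gene against 4.02%. All 8 log2 fold changes were negative, where 48.7% of all genes had a negative value, and their median was −1.92, against 0.02 over all genes and −2.04 over the 15 pan T cell markers. It was −1.12 without CD4cre replicate 1 and ran to −2.48 without CD4IKK1Δ replicate 5. Without CD4cre replicate 1 the log2 fold changes were −2.27 for Ccr7, −1.01 for S1pr1, −1.23 for Tcf7 and −0.31 for Bach2, and without CD4IKK1Δ replicate 5 they ran to −3.99 for Ccr7 and −2.69 for Tcf7. Ccr7 and Klf2 were the 2 of 8 genes whose CD4IKK1Δ libraries were all below the CD4cre libraries in CPM, against 8.44% of all genes. Between CD4NIKΔ and CD4cre mice, 4 of 8 genes rose (S1pr1, Lef1, Tcf7 and Foxo1) and none fell, against 10.4% of all genes called higher and 6.99% called lower. The CD4NIKΔ libraries of these 4 genes were above all CD4cre libraries, as were those of 22.9% of all genes. Between CD4IKK1Δ and CD4NIKΔ mice, 7 of 8 genes were lower in CD4IKK1Δ libraries, all but Bach2, against 18.5% of all genes. The same 7 genes did not overlap in CPM, against 24.4% of all genes. Both comparisons with CD4cre used the same 3 control libraries.

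The calls of CD4NIKΔ against CD4cre depended on single libraries. Lef1 and Foxo1 passed in every fit that left out 1 library, but S1pr1 and Tcf7 did not pass without CD4cre replicate 2, CD4cre replicate 3 or CD4NIKΔ replicate 3. Ccr7 and Klf2 passed without CD4cre replicate 1 (log2 fold changes 1.99 and 1.34), and Satb1 passed without CD4NIKΔ replicate 1. With all 11 libraries in the fit only Foxo1 passed. With the logarithm of the TCR counts as a covariate 0 of 8 passed, and 0 of all genes. The summed TCR level did not overlap between these groups (630 to 1378 CPM in CD4cre, 3320 to 6380 CPM in CD4NIKΔ libraries). This covariate could therefore hardly be separated from genotype, and the fit cannot show whether the calls hold. Of the 7 genes lower in CD4IKK1Δ than in CD4NIKΔ libraries, all 7 passed also without the T cell poor CD4IKK1Δ replicates 1 and 2. Klf2 lost its call without CD4cre replicate 1, 2 or 3, without CD4IKK1Δ replicate 2 or 3 and with only the 8 libraries of both groups in the fit (adjusted p = 0.0551 to 0.0707), and both Ccr7 and Klf2 lost theirs without any 1 of the CD4NIKΔ replicates. With the TCR counts as a covariate Foxo1 alone of the 8 still passed, as did 1924 of the 16546 genes tested.

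**Figure D3:**
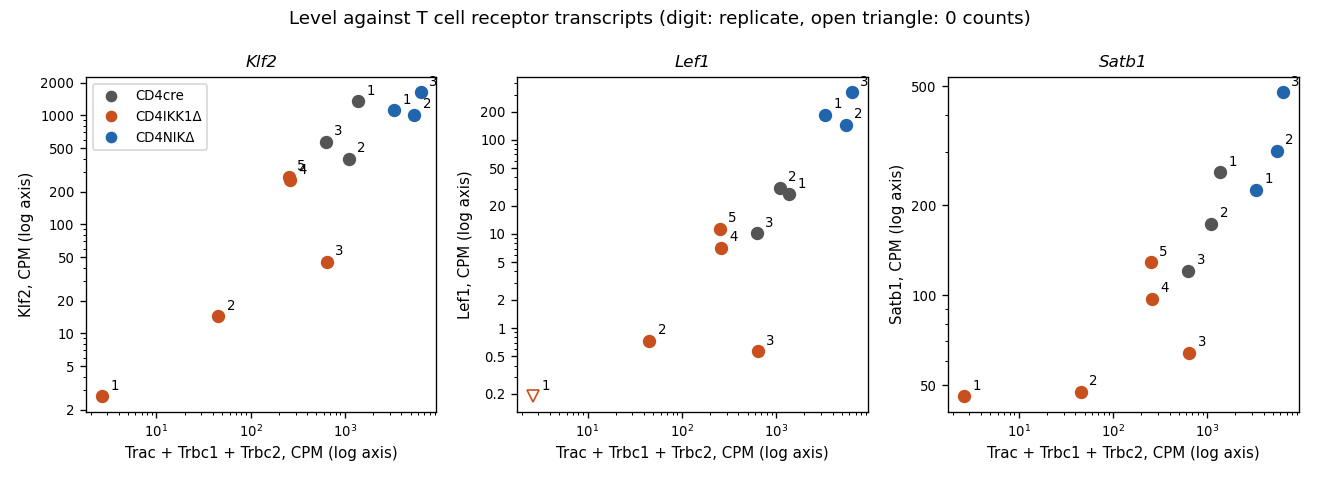
Klf2, Lef1 and Satb1 in CPM against the summed CPM of Trac, Trbc1 and Trbc2, both on log axes, with 1 point per library coloured by group, the replicate number beside it and an open triangle for 0 counts. CD4NIKΔ libraries have the most TCR transcripts and CD4IKK1Δ replicates 1 and 2 the fewest, and CD4IKK1Δ replicate 3 is the library with TCR transcripts in the CD4cre range and with Klf2 and Lef1 far below the CD4cre libraries.

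As the groups differed in T cell receptor transcripts, each gene was also expressed per 1000 TCR counts. Ccr7 had 281, 121 and 128 counts per 1000 TCR counts in CD4cre, 0, 107, 5.34, 161 and 238 in CD4IKK1Δ and 101, 60.1 and 99.6 in CD4NIKΔ libraries. The CD4NIKΔ libraries were all below the CD4cre libraries on this scale (log2 difference −0.95, exact two-sided permutation test, p = 0.1, the smallest that 3 against 3 libraries allow). The CD4IKK1Δ libraries overlapped with CD4cre (log2 difference −1.76, exact permutation p = 0.357, the smallest possible being 0.0357). Leaving out 1 library gave Ccr7 differences from CD4cre of −2.33 to −0.96 for CD4IKK1Δ and −1.17 to −0.56 for CD4NIKΔ libraries. Lef1 had 19.2, 27.9 and 16.1 counts per 1000 TCR counts in CD4cre, 0, 16.1, 0.876, 27.3 and 44.8 in CD4IKK1Δ and 55.9, 26.4 and 50.03 in CD4NIKΔ libraries. Lef1 was thus the gene whose CD4NIKΔ level relative to TCR transcripts was furthest above CD4cre, with a log2 difference of 1.03, although CD4cre replicate 2 was above CD4NIKΔ replicate 2 and the groups overlapped (exact permutation p = 0.2). Tcf7 differed by 0.51 (exact permutation p = 0.5) and S1pr1 by −0.04 (exact permutation p = 1) between CD4NIKΔ and CD4cre libraries. Klf2 had 979, 364 and 914 counts per 1000 TCR counts in CD4cre and 335, 184 and 255 in CD4NIKΔ libraries, with no overlap (log2 difference −1.46, exact permutation p = 0.1). Bach2, whose CPM overlapped between all groups, had 27.0, 14.7 and 14.1 counts per 1000 TCR counts in CD4cre and 2.64, 3.93 and 3.23 in CD4NIKΔ libraries (log2 difference −2.46, exact permutation p = 0.1). In all, 5 of 8 genes (Ccr7, Klf2, Satb1, Bach2 and Foxo1) were lower in every CD4NIKΔ library than in every CD4cre library relative to TCR counts, where 73.0% of all genes were. None of the 8 was higher without overlap, against 1.14% of all genes. With pan T cell markers as the denominator 3 of 8 (Satb1, Bach2 and Foxo1) were lower without overlap, against 71.6% of all genes. Ccr7 and Klf2 overlapped there, and Lef1 was higher without overlap (log2 difference 1.37), against 1.9% of all genes. These p-values were not adjusted.

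The libraries labelled CD4IKK1Δ were spread far more widely on this scale. For no gene did they separate from CD4cre libraries, whereas 34.2% of all genes were higher and 0.0256% lower without overlap. Foxo1 had 68.5, 77.6 and 88.0 counts per 1000 TCR counts in CD4cre and 14146, 976, 80.2, 221 and 330 in CD4IKK1Δ libraries, and Satb1 had 187, 156 and 191 in CD4cre and 17293, 1041, 99.4, 371 and 505 in CD4IKK1Δ libraries. The highest of these values belong to CD4IKK1Δ replicate 1, which had 580 Foxo1, 709 Satb1, 114 S1pr1, 95 Bach2 and 41 Klf2 counts beside 41 TCR counts and 0 counts of Ccr7, Lef1 and Tcf7. A count of 0 in that library allows up to 73.2 counts per 1000 TCR counts. CD4IKK1Δ replicate 3 was the opposite case, with 11413 TCR counts, close to the 12558 of CD4cre replicate 3, but 61 Ccr7, 10 Lef1 and 800 Klf2 counts against 1613, 202 and 11483. Its Ccr7, S1pr1, Lef1 and Klf2 values per 1000 TCR counts (5.34, 22.5, 0.876 and 70.1) were below those of every other library with a count of the gene. Without CD4IKK1Δ replicate 3, 4 of 8 genes separated from CD4cre relative to TCR counts, all higher in CD4IKK1Δ libraries, against 71.0% of all genes. Against CD4NIKΔ libraries, Satb1, Bach2 and Foxo1 were higher in all CD4IKK1Δ libraries relative to TCR counts (log2 differences 3.62, 4.95 and 3.79, exact permutation p = 0.0357 each, the smallest that 5 against 3 libraries allow), where 76.0% of all genes were higher without overlap. Without CD4IKK1Δ replicates 1 and 2 these differences were 2.02, 3.55 and 2.05 (exact permutation p = 0.1, the smallest for 3 against 3). With pan T cell markers as the denominator they were 1.59, 2.91 and 1.76, and Satb1 overlapped (exact permutation p = 0.0714), where 71.2% of all genes were higher without overlap. Lef1 was lower in all CD4IKK1Δ libraries on that scale (−3.86, exact permutation p = 0.0357), as were 1.54% of all genes. It overlapped with TCR counts (−1.83, exact permutation p = 0.107) and with Cd3 gene counts (−2.22, exact permutation p = 0.0714) as the denominator. In CD4IKK1Δ replicate 1 the pan T cell sum was mostly Thy1 (204 of 219 CPM).

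**Figure D4:**
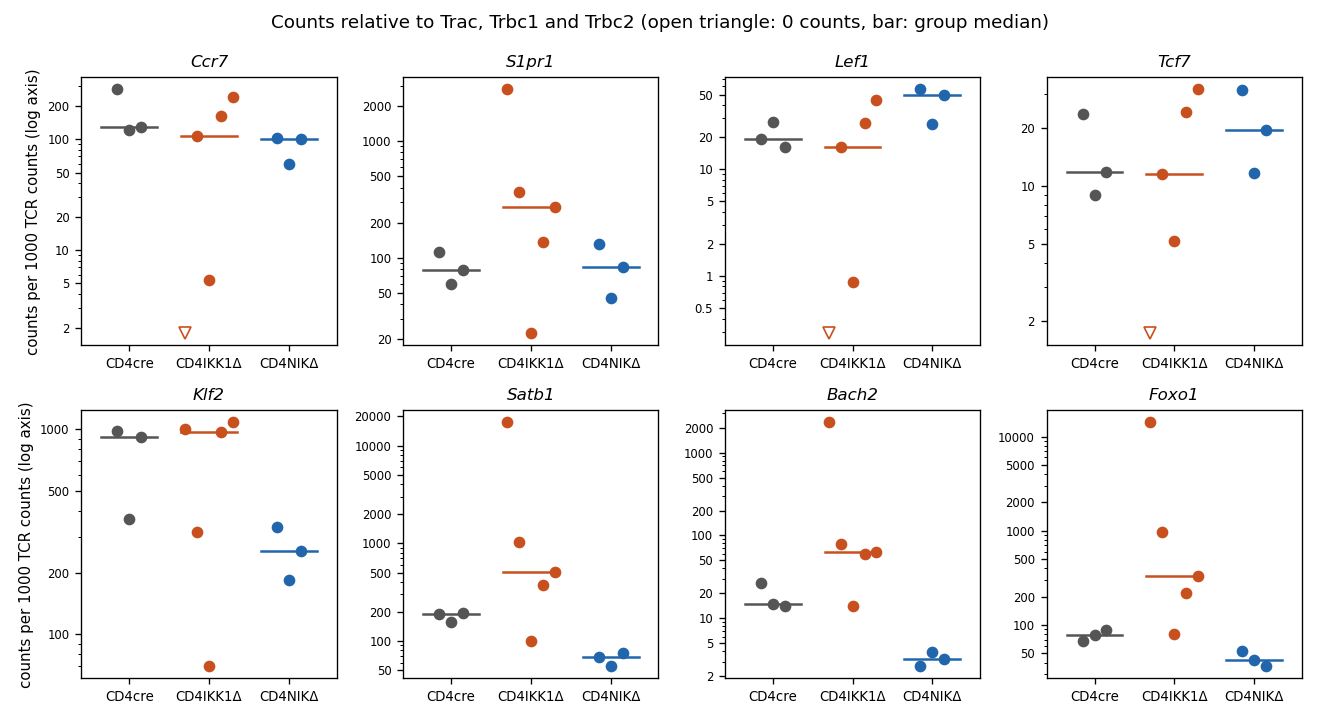
Counts of each gene per 1000 counts of Trac, Trbc1 and Trbc2 on a log axis that differs between panels, with 1 point per mouse, a bar at the group median and an open triangle at the lower edge for 0 counts. Ccr7, Klf2, Satb1, Bach2 and Foxo1 are lower in all CD4NIKΔ than in all CD4cre libraries, and the CD4IKK1Δ libraries span from replicate 3 at the bottom to replicate 1 at the top for S1pr1, Satb1, Bach2 and Foxo1.

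A ratio between a pair of these genes within a library needs no denominator such as TCR counts, but it still depends on which cells gave the RNA. CD4IKK1Δ replicate 1 held 580 Foxo1, 709 Satb1 and 95 Bach2 counts beside 41 TCR counts and 0 counts of Ccr7, Lef1 and Tcf7. For 28 pairs, the log2 ratio was called separated where the libraries of 2 groups did not overlap. Lef1 per 100 Ccr7 counts was 6.84, 23.0 and 12.5 in CD4cre libraries, 15.1, 16.4, 17.0 and 18.8 in the CD4IKK1Δ libraries with Ccr7 counts (replicates 2 to 5), and 55.2, 43.9 and 50.2 in CD4NIKΔ libraries. The CD4NIKΔ libraries therefore had more Lef1 per Ccr7 transcript than any other library, and the CD4IKK1Δ libraries lay inside the CD4cre range. Lef1 per 100 Klf2 counts was also highest in CD4NIKΔ libraries, with 1.96, 7.66 and 1.76 in CD4cre, 0, 5.09, 1.25, 2.81 and 4.15 in CD4IKK1Δ and 16.7, 14.4 and 19.6 in CD4NIKΔ libraries. CD4IKK1Δ replicate 3 was below the CD4cre range, and the 0 of replicate 1 stood beside only 41 Klf2 counts. Klf2 per 100 Foxo1 counts was 1430, 469 and 1039 in CD4cre, 7.07, 32.5, 87.4, 438 and 327 in CD4IKK1Δ and 626, 436 and 697 in CD4NIKΔ libraries, so that all CD4IKK1Δ libraries were below all CD4cre libraries. Bach2 per 100 Foxo1 counts was 39.5, 19.0 and 16.02 in CD4cre and 4.93, 9.34 and 8.82 in CD4NIKΔ libraries, which separated these groups, and 16.4, 8.03, 17.5, 27.1 and 19.4 in CD4IKK1Δ libraries, which overlapped with both. In all, 12 of 28 pairs separated CD4IKK1Δ from CD4cre libraries, against 11.2% of all gene pairs tested. In CD4IKK1Δ libraries Ccr7 was low relative to S1pr1, Tcf7, Satb1, Bach2 and Foxo1, Lef1, Tcf7 and Klf2 were low relative to Bach2 and Foxo1, and Satb1 was low relative to Foxo1. Between CD4NIKΔ and CD4cre, 17 of 28 pairs were separated against 38.4% of all gene pairs, with Lef1 and Tcf7 high relative to Klf2, Satb1, Bach2 and Ccr7, and between CD4IKK1Δ and CD4NIKΔ 19 of 28 against 36.6%. Pairs that share a gene are not independent of each other, and the part of T cell content in these ratios was not tested.

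**Figure D5:**
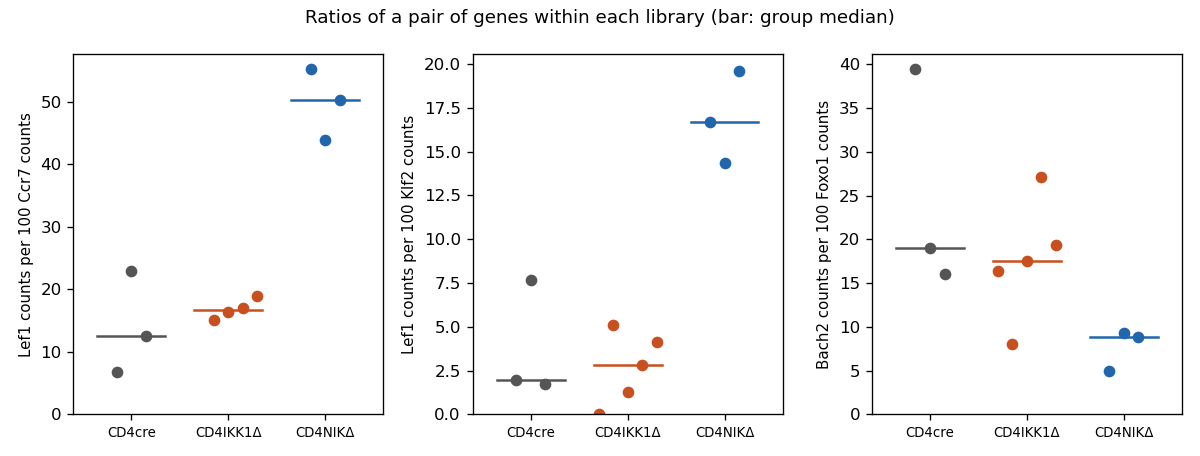
Ratios within each library of Lef1 to Ccr7, Lef1 to Klf2 and Bach2 to Foxo1 counts, with 1 point per library, a bar at the group median and linear axes from 0. Lef1 per 100 Ccr7 counts is 43.9 to 55.2 in CD4NIKΔ and 6.84 to 23.0 in CD4cre libraries, and CD4IKK1Δ replicate 1, with 0 Ccr7 counts, is absent from the first panel.

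The genes with the most similar profile to each of the 8 over the 11 libraries were ranked by the mean absolute difference of centred log2 CPM. For Ccr7 these were Gimap9, a lymphocyte GTPase (0.49 on the log2 scale), and Ccrl2 (0.73), where the median distance of the genes compared was 2.88. That median was lower for the less variable genes, at 0.88 for Foxo1, 0.94 for Bach2 and 1.03 for Satb1, and 1.67 to 2.81 for the other 4 genes. S1pr1 was nearest to Dgka (0.35), the diacylglycerol kinase of resting T cells, and Trp53inp1 (0.36). Tcf7 was nearest to Gpr171 (0.25) and Slfn1 (0.32), and Lef1 to Tmem71 (0.57) and again Slfn1 (0.60), a Schlafen gene of T cells. Klf2 was nearest to Gramd3 (0.43) and Socs3 (0.46), and Satb1 to Id3 (0.17), an inhibitor of E proteins, and Foxn3 (0.21). The genes nearest to Foxo1, Etfa (0.09) and Gm2a (0.11), and to Bach2, Heatr1 (0.32) and Mrm1 (0.33), are expressed widely and are not T cell genes. All these distances rest on the same 11 libraries, which differed in T cell RNA.

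Other genes of the naive and central memory programme were followed as a list of 29 genes. Its counts stand beside 10.4% of all genes called higher and 6.99% called lower in CD4NIKΔ against CD4cre mice, and 18.5% called lower in CD4IKK1Δ against CD4NIKΔ mice. Between CD4IKK1Δ and CD4cre mice 0 of 29 passed edgeR's threshold, 25 had a negative log2 fold change and the median was −1.55. Il7r, the survival receptor for IL-7, had 24.1 ± 27.8 CPM (SD, n = 5) in CD4IKK1Δ and 155 ± 93.5 CPM (SD, n = 3) in CD4cre libraries (log2 fold change −2.69, adjusted p = 0.351). The largest values of the list were those of Cnr2 (−3.53) and Ets1 (−2.94). In CD4NIKΔ against CD4cre mice 8 of 29 rose and none fell, led by the T cell factor Ets1 (2.61, edgeR adjusted p = 0.00468), Dgka (1.82, adjusted p = 0.00570), Art2b (5.65, adjusted p = 0.00752) and the costimulatory receptor Cd28 (2.11, adjusted p = 0.0119). Il7r (1.21, adjusted p = 0.0757) did not pass. Between CD4IKK1Δ and CD4NIKΔ mice 20 of 29 were lower in CD4IKK1Δ libraries. Il7r (−3.90, edgeR adjusted p = 0.0184) was among them, as were Ets1 (−5.55, adjusted p = 0.000396), Klf3 (−2.74, adjusted p = 0.000341) and Foxp1 (−1.63, adjusted p = 0.000145). The 1 gene that was higher was Nsg2 (1.29, adjusted p = 8.82e-05), which neurons also express.

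Of 17 tested genes of lymph node homing and egress, 7 rose and 1 fell in CD4NIKΔ against CD4cre mice, where 10.4% of all genes rose and 6.99% fell. Cd69, which removes S1PR1 from the cell surface, was at 1093 ± 340 CPM in CD4NIKΔ and 140 ± 101 CPM in CD4cre libraries (SD, n = 3 each, log2 fold change 2.97, edgeR adjusted p = 0.00969). In CPM the transcripts of the receptor and of its antagonist were thus both higher. Relative to TCR counts, S1pr1 differed by only −0.04 on the log2 scale, and the TCR constant genes themselves had a median log2 fold change of 2.14. The integrin chains Itga4 (1.98, adjusted p = 0.00230) and Itgal (2.12, adjusted p = 0.00950) and the G protein subunit Gnai2, which couples to CCR7 and S1PR1 (2.95, adjusted p = 0.00425), rose as well. The gene that fell, named after its value was seen, was the sphingosine-1-phosphate exporter Spns2 (−1.58, adjusted p = 0.0180). In CD4IKK1Δ against CD4cre mice none of the 18 genes tested passed, with Cd69 at 22 ± 21.1 CPM (−2.66, adjusted p = 0.374), and the largest values were those of Grk2 (−3.07) and Cxcr4 (−2.96). Against CD4NIKΔ, 13 of 18 were lower in CD4IKK1Δ libraries (18.5% of all genes), Cd69 (−5.63, edgeR adjusted p = 0.00493), Itga4 (−3.00, adjusted p = 9.45e-06) and Rap1a (−1.59, adjusted p = 0.000266) among them, and Spns2 was higher (1.75, adjusted p = 0.000324).

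Around Foxo1, 3 of 20 genes of the PI3K, AKT and FOXO axis rose and 1 fell in CD4NIKΔ against CD4cre mice by edgeR's test, shares near those of all genes (10.4% and 6.99%). Those that rose were Ywhaz, which encodes a 14-3-3 protein (1.74, adjusted p = 0.0118), Pik3cd (1.00, adjusted p = 0.0159) and Trim27 (1.09, adjusted p = 0.0267). In CD4IKK1Δ against CD4NIKΔ mice 9 of 20 were lower, against 18.5% of all genes, such as Rictor (−1.55, adjusted p = 0.000112) and Cdkn1b (−2.38, adjusted p = 0.000920), and 1 was higher. Around Lef1 and Tcf7, their partner Ctnnb1, which encodes β-catenin, moved against them: it fell in CD4NIKΔ against CD4cre mice (−1.01, edgeR adjusted p = 0.0234) and was higher in CD4IKK1Δ than in CD4NIKΔ libraries (1.36, adjusted p = 0.000173). Of the 20 partners and targets, Myc rose (1.81, adjusted p = 0.0166) and Ccnd1 fell (−1.08, adjusted p = 0.0392) in CD4NIKΔ mice, and 6 were lower and 2 higher in CD4IKK1Δ than in CD4NIKΔ libraries, against 18.5% and 14.8% of all genes, with Myc at −3.98 (adjusted p = 9.94e-05) and Runx3 at −5.02 (adjusted p = 0.00245). Neither list had a gene past the threshold between CD4IKK1Δ and CD4cre mice, where the largest values were Klf4 (−2.23) and Il7r in the first and Runx3 (−3.60) and Runx1 (−2.24) in the second.

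Around Bach2 and Satb1, 4 of 17 tested partners and opponents rose in CD4NIKΔ against CD4cre mice by edgeR's test, against 10.4% of all genes. They were the deacetylase Hdac1 (2.38, adjusted p = 0.00170), the AP-1 factor Batf (1.45, adjusted p = 0.0166), Gata3 (1.91, adjusted p = 0.0173) and Nfe2l2 (1.87, adjusted p = 0.0390). Prdm1, the effector regulator that BACH2 represses, was at 16.02 ± 3.73 CPM in CD4NIKΔ and 5.96 ± 6.11 CPM in CD4cre libraries (SD, n = 3 each, 1.42, adjusted p = 0.167). In CD4IKK1Δ against CD4NIKΔ mice 13 of 18 were lower, against 18.5% of all genes, among them Prdm1 (−4.17, adjusted p = 0.00383), Jun (−3.60, adjusted p = 0.00142) and Junb (−3.89, adjusted p = 0.00181), and 1 was higher. None of 17 passed between CD4IKK1Δ and CD4cre mice, where Jun (−3.05, adjusted p = 0.123) and Junb (−2.99, adjusted p = 0.155) had the largest values and Prdm1 was at −2.75 (adjusted p = 0.247). Of 20 tested regulators of quiescence, 7 rose in CD4NIKΔ against CD4cre mice, against 10.4% of all genes, with Slfn2 (2.42, edgeR adjusted p = 0.00711) and the antiproliferative Btg1 (2.08, adjusted p = 0.0223), and Fbxw7 fell (−1.14, adjusted p = 0.0238). In CD4IKK1Δ against CD4NIKΔ mice 14 of 20 were lower, against 18.5% of all genes, such as Tob2 (−2.36, adjusted p = 8.04e-05) and Btg2 (−3.19, adjusted p = 0.000249), and Fbxw7 was higher (1.48, adjusted p = 0.000135). None passed between CD4IKK1Δ and CD4cre mice, where Vsir (−3.57) and Zfp36 (−2.85) had the largest values.

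Genes of the opposite, effector state were followed as a list of 30. In CD4NIKΔ against CD4cre mice 26 of 30 effector and effector memory genes rose and none fell, against 10.4% and 6.99% of all genes, including Cd44 (156 ± 12.1 against 23.5 ± 9.14 CPM, SD, n = 3 each, log2 fold change 2.72, edgeR adjusted p = 0.00255), S100a4 (3.19, adjusted p = 0.00160) and Lgals1 (3.03, adjusted p = 0.00170). The median log2 fold change of this list was 2.28, against 1.27 for the 8 genes, 1.86 for pan T cell markers and 2.14 for the TCR constant genes. In CD4IKK1Δ against CD4NIKΔ mice 25 of 30 effector genes were lower, against 18.5% of all genes, with Cd44 at −4.42 (adjusted p = 0.000491) and Id2 at −2.27 (adjusted p = 1.34e-05), and Zeb2, named after its value was seen, was higher (1.07, adjusted p = 0.00142). The medians were −4.16 for the effector list, −3.61 for the 8 genes and −3.91 for pan T cell markers. In CD4IKK1Δ against CD4cre mice 0 of 28 tested effector genes passed, with Cd44 at −1.70 (adjusted p = 0.249), Anxa1 at −3.56 and Ifng at −3.04. Their median was −1.76, against −1.92 for the 8 genes, −2.04 for pan T cell markers and −2.14 for the TCR constant genes. Pan T cell markers gave 11 of 15 higher in CD4NIKΔ than in CD4cre mice (10.4% of all genes), 13 of 15 lower in CD4IKK1Δ than in CD4NIKΔ libraries (18.5% of all genes) and 0 of 15 past the threshold between CD4IKK1Δ and CD4cre mice.

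Markers of other cells moved with the groups as well, and their part in the levels of the 8 genes was not tested. B cells, which also express Ccr7, Klf2, S1pr1, Foxo1 and Bach2, were marked by 10 genes that summed to 69.9 to 140.2 CPM in CD4cre, 4.59 to 26.2 CPM in CD4IKK1Δ and 195 to 668 CPM in CD4NIKΔ libraries. In CD4cre and CD4NIKΔ libraries most of this sum was Ighm, which rose in CD4NIKΔ against CD4cre mice (2.29, edgeR adjusted p = 0.0179). Pax5 was at 0 in all CD4cre libraries, whereas Cd79a and Cd79b were above 0 in at least 2 of the 3. Neuronal markers summed to 3320 to 4048 CPM in CD4cre, 4361 to 5096 CPM in CD4IKK1Δ and 1164 to 2330 CPM in CD4NIKΔ libraries, with 9 of 10 lower in CD4NIKΔ than in CD4cre mice (6.99% of all genes) and 10 of 10 higher in CD4IKK1Δ than in CD4NIKΔ libraries (14.8% of all genes). By group mean the neuronal markers stood in the opposite order to 7 of the 8 genes, all but Bach2, and none of the 10 was at 0 in a whole group. Nsg2, Spns2, Ctnnb1, Ccnd1, Fbxw7 and Zeb2 had the same order of group means as the neuronal markers. Macrophage and monocyte markers summed to 440 to 1848 CPM in CD4cre, 98.8 to 256 CPM in CD4IKK1Δ and 634 to 951 CPM in CD4NIKΔ libraries. CD4cre replicate 1 was at the top. Among CD4cre libraries it also had the most TCR counts (35820) and the highest Ccr7, S1pr1, Tcf7, Klf2, Satb1, Bach2 and Foxo1. NK and CD8 T cell markers summed to 28.3 to 67.2, 5.89 to 15.4 and 141 to 181 CPM in the same order of groups (Klra8 at 0 throughout), and kidney tubule markers to 18.5 to 88.6, 3.51 to 12.04 and 15.7 to 115 CPM. Endothelial markers, cells that express Klf2, S1pr1 and Foxo1, summed to 181 to 200 CPM in CD4cre, 195 to 242 CPM in CD4IKK1Δ and 106 to 129 CPM in CD4NIKΔ libraries. Of these 10 markers, Cdh5 and Tek were at 0 in all CD4cre and CD4NIKΔ libraries, and Egfl7 and Plvap made up most of the sum in CD4cre and CD4IKK1Δ libraries. Dendritic cell markers summed to 18.0 to 46.3 CPM over all libraries.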

How the data were processed

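Renal CD4+ T cells were enriched with an isolation kit, sorted by flow cytometry, and their RNA was amplified (SMARTer) and sequenced paired-end. Per the labels and the study's methods, the authors trimmed reads with Trimmomatic and quantified them with kallisto. They deposited estimated counts summed per gene symbol, of which 35.3 to 41.8% per library were not whole. The labels name mm10 and the study's methods GRCm39, and the kallisto version and annotation are not given in the sources used here. Gene positions were taken from GENCODE's annotation of GRCm39 and promoter windows from RefSeq's table of GRCm38.p6.

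Estimated counts were rounded and tested with edgeR 4.0.16 (limma 3.58.1, R 4.3.3): filterByExpr, TMM factors and the robust quasi-likelihood F test, with a threshold of an adjusted p (Benjamini-Hochberg over all genes tested) under 0.05 and a more than 2-fold difference. Each comparison with CD4cre was fitted on the libraries of both groups, and CD4IKK1Δ against CD4NIKΔ on all 11 libraries. Standard errors were derived from the F statistic. CPM used TMM factors of all libraries. Ratios to TCR counts were tested on the log2 scale with a pseudocount of 0.5 by exact two-sided permutation tests. DESeq2 1.42.0, other scalings, other filters and left-out libraries were alternatives, and the tests were run on simulated data first. No library pair held identical values.

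The 8 genes and all lists were chosen with earlier results of these data known. Of each other list, the text names at most 4 genes past the threshold by smallest adjusted p, otherwise the 2 with the largest log2 fold change, always Il7r, Cd69, Cd44 and Prdm1, and for each of the 8 genes the 2 with the nearest profile. Some genes this rule covers are counted in their lists but not reported here. Leaving out CD4IKK1Δ replicates 1 and 2, which had under 1000 TCR counts, was chosen after the data were seen.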

Additional observations from a re-analysis of the deposited data

Results flagged for a closer look

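Relative to TCR counts, CD4IKK1Δ replicate 1 stood apart from the other 4 libraries of its group for 4 of the 8 genes by Dixon's test. Per 1000 TCR counts this library had 2780.5 S1pr1 counts (the next highest of the group had 365), 17293 Satb1 counts (next 1041), 2317 Bach2 counts (next 78.3) and 14146 Foxo1 counts (next 976). Its denominator was 41 TCR counts. In CPM, which does not use that denominator, its S1pr1 level of 7.37 and its Foxo1 level of 37.5 were the lowest of all 11 libraries. Satb1 was lowest there as well, at 45.9 CPM, and Bach2 was at 6.14 CPM, above replicate 2. In all, 4 of 16 groups tested stood out, where chance alone marks about 1 in 20, and the 4 share 1 denominator.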

How the results depend on the processing

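Of the results for single genes, 627 kept their direction and their side of the threshold or moved within the spread, 66 lost a call, 6 gained one and 39 changed sign. Between CD4IKK1Δ and CD4cre mice, where edgeR called 0 genes, DESeq2 called 547 (706 with all 11 libraries), RLE factors 1, a filter of 1 count in any library 48, a filter of 10 counts in every library 159, all 11 libraries in the fit 129, and the fit without the T cell poor replicates 1 and 2 called 36. Leaving out 1 library gave 0 to 23 genes. Of the 8 genes DESeq2 called 1 (Satb1), with all 11 libraries 0, and leaving out 1 library gave 0 to 0. Between CD4NIKΔ and CD4cre mice, 2649 genes and 4 of the 8 passed. With TCR counts as a covariate 0 and 0 passed, with TCR counts as the library size 10527 genes did, and of the 8 genes DESeq2 with all 11 libraries called 2 and all 11 libraries in the edgeR fit 1. Leaving out 1 library gave 674 to 3468 genes and 2 to 6 of the 8. Between CD4IKK1Δ and CD4NIKΔ mice, 5512 genes and 7 of the 8 passed, 1924 and 1 with the covariate, and 14501 and 3 with TCR counts as the library size. A filter of 10 counts in every library left 4 of the 8, which removed genes at 0 counts in a library, and leaving out 1 library gave 4116 to 5556 genes and 5 to 7 of the 8. Relative to TCR counts, the number of the 8 genes without overlap ran from 0 to 4, from 5 to 6 and from 3 to 4 in the same order of comparisons, the 4 of the first coming without CD4IKK1Δ replicate 3.

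Scaling on TCR transcripts turned directions. With TCR counts as the library size, the log2 fold changes of CD4IKK1Δ against CD4cre were 3.08 for S1pr1, 0.0905 for Tcf7, 4.44 for Satb1, 4.75 for Bach2 and 5.33 for Foxo1, all below the median of 6.16 over all genes. Those of CD4NIKΔ against CD4cre were −1.02 for Ccr7, −1.54 for Klf2, −1.43 for Satb1 and −0.82 for Foxo1, and those of CD4IKK1Δ against CD4NIKΔ 0.26 for Ccr7, 3.04 for S1pr1, 1.41 for Klf2, 5.87 for Satb1, 7.25 for Bach2 and 6.15 for Foxo1. With TCR counts as a covariate, CD4IKK1Δ against CD4cre gave 0.23 for Lef1 and 0.70 for Tcf7, CD4NIKΔ against CD4cre −1.73 for Ccr7, −0.69 for Klf2 and −1.23 for Satb1, and CD4IKK1Δ against CD4NIKΔ 0.72 for Ccr7, 0.60 for Klf2 and 0.35 for Bach2. With pan T cell markers in place of the TCR genes as the denominator, the log2 difference of S1pr1 was −0.11, 0.30 and −0.40 in the same order of comparisons, that of Tcf7 was −1.62 in the first and that of Klf2 −1.12 in the last. With Cd3 genes it was −0.31 for Tcf7 in the first. Leaving out 1 library gave log2 fold changes of Bach2 from −0.64 to 0.41 in CD4NIKΔ against CD4cre mice. Relative to TCR counts it gave −1.28 to 0.12 for Lef1, −0.23 to 0.47 for Tcf7 and −1.01 to 0.14 for Klf2 in CD4IKK1Δ against CD4cre mice, and −0.40 to 0.36 for S1pr1 in CD4NIKΔ against CD4cre mice. The cause of these changes was not tested.

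The replicate numbers did not pair the libraries, since same-numbered libraries deviated from their group means with correlations of −0.0890 to 0.0772. A fit with the replicate number as a block called 3 genes and 0 of the 8 between CD4IKK1Δ and CD4cre mice, 1185 and 4 between CD4NIKΔ and CD4cre, and 4994 and 7 between CD4IKK1Δ and CD4NIKΔ.

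The limits are the 3 control libraries shared by 2 comparisons, the 41 and 868 TCR counts of CD4IKK1Δ replicates 1 and 2, below which ratios to TCR counts carry little precision, and the design of 3 against 3, in which the exact permutation test cannot go below p = 0.1.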

Other observations

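CD4IKK1Δ replicate 3 differed from the other libraries of its group also in the balance among the 8 genes. Per 100 Ccr7 counts it had 96.7 Tcf7 counts, where the other CD4IKK1Δ libraries with Ccr7 counts had 10.8, 15.1 and 13.3, the CD4cre libraries 8.39, 7.35 and 9.18 and the CD4NIKΔ libraries 31.1, 19.4 and 19.7. The same library had 61 Ccr7 and 59 Tcf7 counts, so that the ratio rests on few counts.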
